A study of Mus musculus with 15 samples.

Results

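The nuclear long noncoding RNA (lncRNA) genes Gm26917, Malat1, Neat1, Mir100hg and Kcnq1ot1 were examined in bulk RNA-seq of 4T1 cells, a mouse mammary carcinoma line that serves as a model of triple-negative breast cancer. They are 5 of the 40402 genes in the count table. The genes were chosen by symbol and on values from these same data, since Gm26917 had the most counts of any gene and Neat1 was higher in the blueberry conditions. Their levels and fold changes are therefore given as descriptions. All 5 genes were among the 17647 genes with at least 1 CPM (the count scaled to equal library totals) in at least 1 library.

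The comparison asks what berry extracts, and gold nanoparticles made with them, do to the transcriptome of 4T1 cells. The 5 conditions were untreated cells, cells treated with blackberry extract (BLA) or blueberry extract (BLU), and cells treated with gold nanoparticles formed with the blackberry (BLA-A) or the blueberry (BLU-A) extract. All cells, the untreated ones included, came from 1 line with the genotype given as WT, grew in medium with 10% serum and, per the labels, yielded RNA with integrity numbers from 9.70 to 10. A supplementary quality report of the study shows lower numbers for 2 RNA samples that it does not tie to a condition. Treatment started 24 h after seeding. The untreated cells received neither extract nor nanoparticles, and no condition held nanoparticles without an extract. The labels give 3 samples per condition, each with its own batch date, so batch and sample cannot be told apart.

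Each condition was taken as 1 library, which is an inference. A report in the study's supplementary material gives the raw reads once per condition and lists 3 read subsets below them, and within each condition the 3 columns agreed more closely than sampling noise would give, with a chi-square per degree of freedom from 0.0951 to 0.475. Against this, the study's statistics section speaks in general of independent biological replicates, and its alignment report counts 15 libraries. The columns were averaged. For the 5 lncRNA genes they spread by 0.00099% to 3.1% of the mean count. On this reading no test between 2 conditions was possible, and the 95% intervals below cover counting error only, not the variation between cultures. In bulk samples, fewer cells that make an RNA and less of it per cell cannot be told apart.

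Total counts were similar, from 25613778 in BLA-A to 26956442 in BLA. Epithelial markers were present (Krt18 at 451.2 to 688.9 CPM, Cdh1 at 123.7 to 232.5 CPM), with Krt14 at no more than 0.82 CPM. Markers of other cells were low: the summed leukocyte markers (Ptprc, Csf1r, Adgre1) lay at 0.82 to 4.47 CPM, the endothelial ones (Pecam1, Cdh5, Kdr) at 1.77 to 4.06 CPM, and Hba-a1 and Hbb-bs at 0. Of the fibroblast markers, Pdgfra was at 86.0 to 102.2 CPM while Col3a1 and Dcn reached at most 0.0377 and 0.327 CPM. The BLA-A library stood apart from the others. The mitochondrial ribosomal RNAs mt-Rnr1 and mt-Rnr2 were at 3.49 and 10.8 CPM in it, against 341.1 to 436.4 and 483.1 to 555.6 CPM in the other libraries. The mitochondrial genes COX1 and ND1 went the other way, at 14209.2 and 5956.1 CPM against 4053.1 to 6203.0 and 509.7 to 924.2 CPM. Rn7sk, the RNA of the 7SK particle, was at 3470.3 CPM against 58.7 to 93.7 CPM, and Rmrp at 898.1 against 52.3 to 68.9 CPM. Their part in the BLA-A values below was not tested.

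Long noncoding RNAs that stay in the nucleus act as scaffolds for protein assemblies or act on the chromatin near their own gene. Malat1 gathers in nuclear speckles, bodies rich in splicing factors, and Neat1 is the backbone of paraspeckles, which form with the proteins Nono, Sfpq and Pspc1 and grow under stress. Kcnq1ot1 is transcribed from the paternal copy of an imprinted domain and silences neighbouring genes on that copy. Mir100hg is the host transcript of a cluster of microRNA genes. Gm26917 is a predicted noncoding gene with no entry in the GENCODE annotation used here, and its position and sequence were not analysed. Whether its counts came from a nuclear lncRNA or from other RNA was not tested.

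Malat1 and Neat1 lie near each other on the minus strand of chromosome 19, at chr19:5845717-5853602 and chr19:5874736-5897132 of GRCm39 in the GENCODE annotation. Their 3′ ends are shown because both RNAs end in the same unusual way. RNase P cuts below a run of A, the upstream U-rich stretches fold with the A-run into a triple helix that protects the end, and the piece released resembles a tRNA. Each line gives 160 bases of GRCm39, 100 up to the end of the GCAAAA motif and 60 past it, and capitals mark words of at least 8 bases that both windows hold. The window of Malat1 is chr19:5845950-5846109 and that of Neat1 chr19:5874676-5874835, both on the minus strand.
Malat1 3′ end: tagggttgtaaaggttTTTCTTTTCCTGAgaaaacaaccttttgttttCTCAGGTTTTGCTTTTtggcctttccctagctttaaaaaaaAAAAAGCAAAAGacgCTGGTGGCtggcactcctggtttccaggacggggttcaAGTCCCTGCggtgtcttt
Neat1 3′ end: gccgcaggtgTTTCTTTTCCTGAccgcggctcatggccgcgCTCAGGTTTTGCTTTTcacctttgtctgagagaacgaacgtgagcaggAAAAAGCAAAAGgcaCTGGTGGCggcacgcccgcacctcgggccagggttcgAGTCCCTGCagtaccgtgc
The windows shared 58 bases in 5 runs, the longest of 16 bases. The A-run before GCAAAA was 12 bases long in Malat1 and 5 in Neat1. The annotated Neat1 gene ends at the last base of this motif, and the annotated Malat1 gene runs on for another 293 bases.

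Mir100hg spans chr9:41238321-41628290 on the plus strand and holds 3 microRNA genes on the same strand. Mir100 is at chr9:41442721-41442800, Mirlet7a-2 at chr9:41448012-41448107 and Mir125b-1 at chr9:41493222-41493298, all in GRCm39. The mature 5p strands are shown because they are the products this host gene is known for. The sequences are from RefSeq (GRCm38.p6) and capitals mark the seed, bases 2 to 8.
mmu-miR-100-5p: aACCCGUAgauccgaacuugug
mmu-let-7a-5p: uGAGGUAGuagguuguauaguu
mmu-miR-125b-5p: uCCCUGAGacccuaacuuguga
The 3 seeds differ from one another. Mir100, Mirlet7a-2 and Mir125b-1 were listed at 0 in every column of the count table. They lie wholly inside Mir100hg, so these zeros do not give the level of the microRNAs. The level of Mir100hg below is that counted for the whole host gene.

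Gm26917 had the highest count of any gene in each of the 5 libraries. It took 5.94% of all counts in untreated cells (95% Wilson interval 5.93 to 5.95), 6.40% in BLA (6.39 to 6.41), 7.84% in BLA-A (7.83 to 7.85), 4.55% in BLU (4.54 to 4.56) and 5.28% in BLU-A (5.27 to 5.29). Its share was thus above that of untreated cells in both blackberry conditions and below it in both blueberry conditions. The gene with the next highest count was Eef1a1, a translation elongation factor, in 4 libraries and the mitochondrial gene COX1 in BLA-A. Gm26917 had 5.78 to 9.29 times the count of that gene. On the scale of log2 fold change against untreated cells, from CPM normalized by trimmed mean of M values (TMM) plus 0.5, Gm26917 was at 0.14 in BLA, 0.59 in BLA-A, -0.37 in BLU and -0.17 in BLU-A. None of these values was over 1 in size.

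Gm26917 made up 90.6% to 96.0% of the counts of the 5 lncRNA genes together. The other 4 genes combined took 0.247% of the counts in untreated cells (0.246 to 0.249), 0.546% in BLA (0.543 to 0.549), 0.335% in BLA-A (0.333 to 0.338), 0.472% in BLU (0.470 to 0.475) and 0.367% in BLU-A (0.365 to 0.370). Their combined share was above that of untreated cells in each treatment, while the shares of single genes differed in direction.

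**Figure D1:**
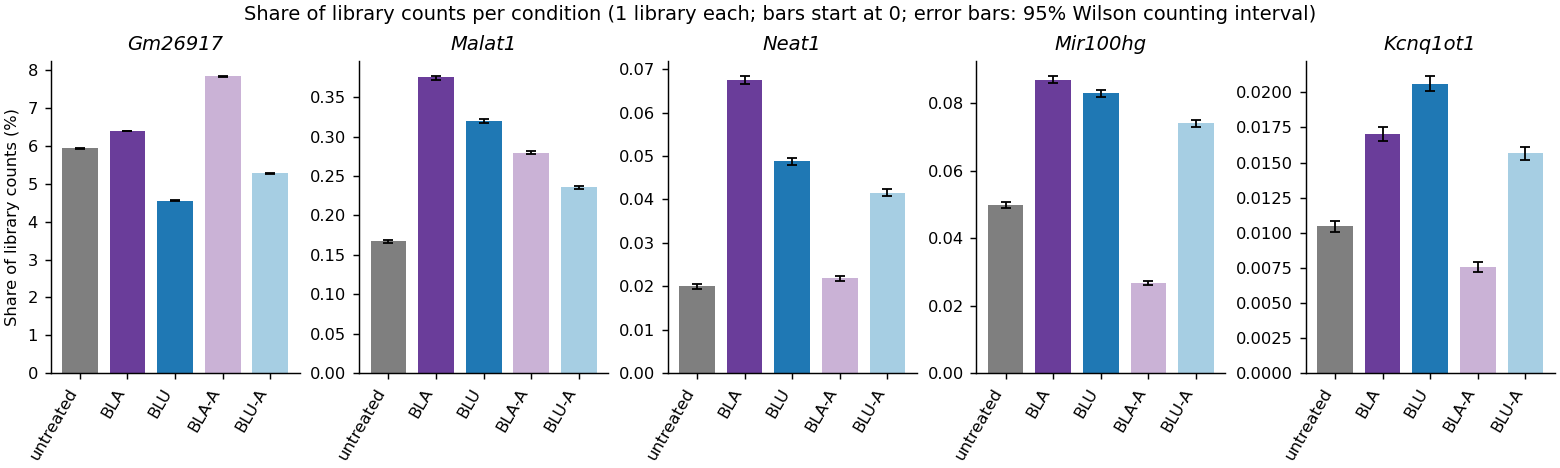
Share of library counts (%) of the 5 lncRNA genes in the 5 conditions, 1 library each, with 95% Wilson intervals for counting error. Each panel has its own axis from 0; Gm26917 lay between 4.55% and 7.84%, and Malat1 and Neat1 were lowest in untreated cells.

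Malat1 was the second most counted of the 5 genes and was higher than in untreated cells in all 4 treatments. It had 1616.1 TMM-normalized CPM in untreated cells, 3707.3 in BLA, 3086.9 in BLA-A, 3116.9 in BLU and 2289.4 in BLU-A. Among all genes in the table its rank by count was 29 in untreated cells and 9, 15, 10 and 12 in BLA, BLA-A, BLU and BLU-A. The log2 fold change was 1.20 in BLA (counting interval 1.18 to 1.21), 0.93 in BLA-A (0.92 to 0.95), 0.95 in BLU (0.93 to 0.96) and 0.50 in BLU-A (0.48 to 0.52). Only the BLA value was over 1, although BLA-A reached 1.06 where Gm26917 was left out of the scaling and 1.03 with no filter on low counts. BLU and BLA-A were the only neighbours, of the 20 pairs of adjacent conditions in the order of levels of the 5 genes, that did not differ beyond counting error.

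Neat1 showed the largest fold changes of the 5 genes in BLA, BLU and BLU-A. It had 193.1 CPM in untreated cells, 667.4 in BLA, 241.6 in BLA-A, 475.4 in BLU and 403.2 in BLU-A. In counts this was 5147 in untreated cells against 18179, 5600, 13101 and 10687 in the treatments, named in the same order, and its rank among all genes was 943 against 116, 813, 209 and 262. The BLA-A level was the nearest to the untreated one, and the other 3 treatments were above both.
The log2 fold change of Neat1 was 1.79 in BLA (1.74 to 1.83), 0.32 in BLA-A (0.27 to 0.38), 1.30 in BLU (1.25 to 1.35) and 1.06 in BLU-A (1.01 to 1.11). The BLU and BLU-A values are those that chose Neat1. Of the 2439 genes with a mean of at least 100 CPM, 4 had a higher log2 fold change than Neat1 in BLA, 842 in BLA-A, 15 in BLU and 11 in BLU-A. Neat1 is made as a short and a long form that start together, and counts per gene do not separate them. Frmd8os, an antisense lncRNA that overlaps Neat1 over 1572 bases, was at 7.99 to 11.1 CPM.

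The ratio of Malat1 to Neat1 counts differed between conditions. It was 8.37 in untreated cells, 5.56 in BLA, 12.8 in BLA-A, 6.56 in BLU and 5.68 in BLU-A. Malat1 was thus further above Neat1 in BLA-A than in any other library. Per kilobase of the RefSeq gene span, Malat1 had 231.4 and Neat1 9.3 CPM in untreated cells, while BLA gave 530.9 and 32.1. Mir100hg and Kcnq1ot1, which are spread over much longer spans, had 2.02 and 1.21 CPM per kilobase in untreated cells, while BLA gave 3.61 and 2.02. The levels per kilobase had the order Malat1, Neat1, Mir100hg and Kcnq1ot1 in each of the 5 libraries.

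Mir100hg was higher than in untreated cells in 3 treatments and lower in BLA-A. It had 482.8 CPM in untreated cells, 860.6 in BLA, 294.6 in BLA-A, 807.3 in BLU and 719.3 in BLU-A. The log2 fold change was 0.83 in BLA (0.80 to 0.87), -0.71 in BLA-A (-0.76 to -0.67), 0.74 in BLU (0.71 to 0.77) and 0.57 in BLU-A (0.54 to 0.61). None was over 1 in size. The genes at the flanks of the locus were higher, not lower, in BLA-A than in untreated cells. Ubash3b, a phosphatase, had 64.9 CPM in untreated cells, 98.8 in BLA, 83.9 in BLA-A, 89.1 in BLU and 72.0 in BLU-A. Outside BLA-A its order of levels was that of Mir100hg. Sorl1, a sorting receptor, had 32.9, 33.1, 53.1, 37.2 and 38.3 CPM, with the conditions named in the same order. Gm35835, an antisense lncRNA at the 3′ part of Mir100hg, was at 0.216 CPM in BLA-A and at 1.62 to 2.14 CPM elsewhere.

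Kcnq1ot1 was, like Mir100hg, lower in BLA-A than in untreated cells and higher in the other treatments. It was at 101.2 CPM in untreated cells, 168.4 in BLA, 83.4 in BLA-A, 200.9 in BLU and 151.9 in BLU-A. The log2 fold change was 0.73 in BLA (0.67 to 0.80), -0.28 in BLA-A (-0.36 to -0.19), 0.99 in BLU (0.92 to 1.06) and 0.58 in BLU-A (0.52 to 0.66). The BLU value was the highest that stayed under 1, and the Neat1 value in BLU-A, 1.06, was the lowest above it.

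Kcnq1ot1, at chr7:142731402-142850327 on the minus strand, lies wholly inside Kcnq1, a potassium channel gene at chr7:142660099-142980788 on the plus strand. The 2 genes had nearly equal counts in every library. There were 2894 counts of Kcnq1 and 2697 of Kcnq1ot1 in untreated cells, 4785 and 4588 in BLA, 2041 and 1934 in BLA-A, 5845 and 5537 in BLU, and 4244 and 4026 in BLU-A. The ratio was 1.04 to 1.07 throughout. Whether these counts came from the channel gene or from its antisense partner cannot be told apart, although counting was set to use strand.

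**Figure D2:**
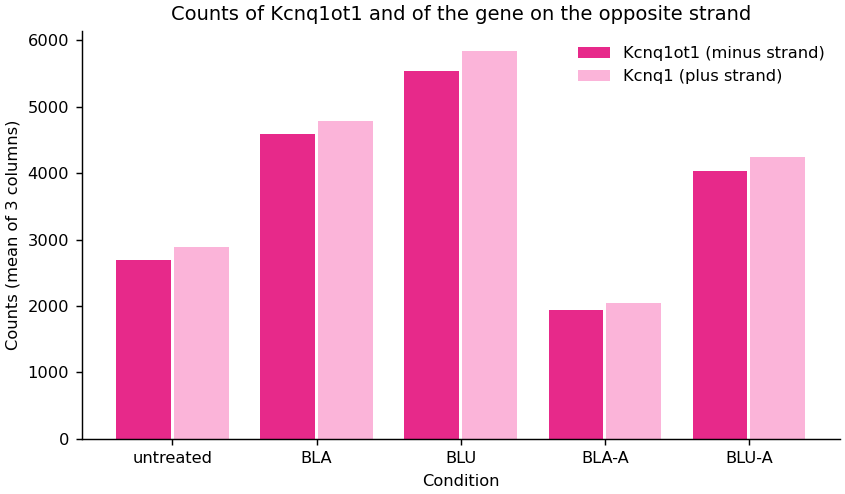
Counts (mean of 3 columns, 1 library per condition) of Kcnq1ot1 and of Kcnq1, the gene on the opposite strand, in 5 conditions. The paired bars are nearly equal everywhere, with 1.04 to 1.07 Kcnq1 counts per Kcnq1ot1 count.

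Of the 20 values of the 5 genes in 4 treatments, 16 were above 0 and 4 below, with 4 over 1 and none under -1. In BLA, 2 of the 5 genes were over 1 (Malat1 and Neat1), beside 7.92% of all 17647 genes and 3.94% of the 2439 genes with a mean of at least 100 CPM. In BLU it was 1 of 5 (Neat1), beside 5.66% of all genes and 2.26% of the genes with at least 100 CPM. In BLU-A it was again Neat1 alone, beside 3.35% and 0.615%. In BLA-A no gene of the 5 was over 1, beside 8.54% and 5.9%. Under -1 were 8.54%, 12.4%, 4.64% and 4.5% of all genes in BLA, BLA-A, BLU and BLU-A. Because these contrasts were known when the genes were chosen, nothing is read from the counts.

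**Figure D3:**
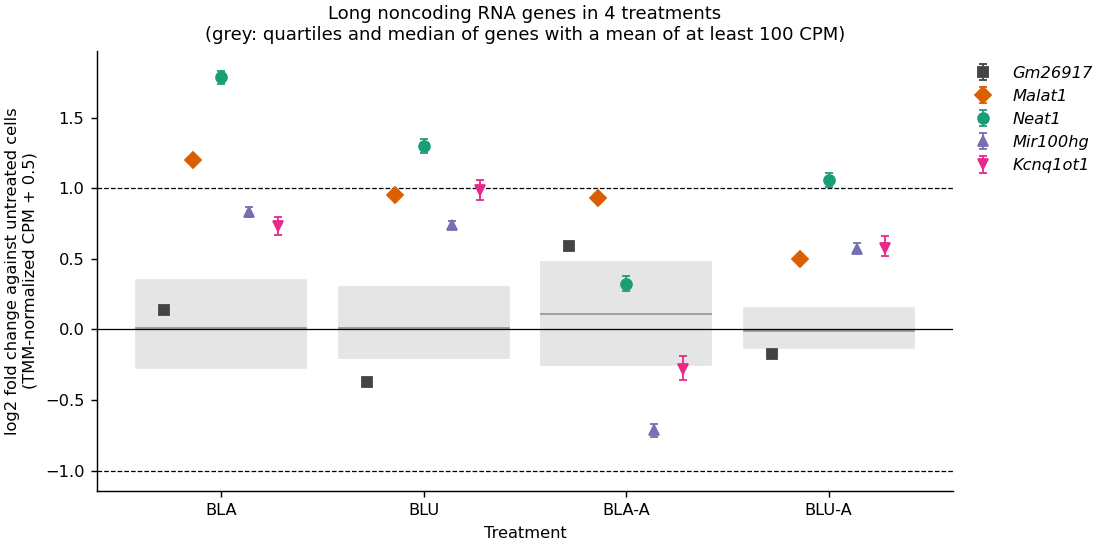
log2 fold change against untreated cells (TMM-normalized CPM plus 0.5) of the 5 lncRNA genes in each treatment, with counting intervals, dashed lines at 1 and -1, and in grey the quartiles and median of the 2439 genes with a mean of at least 100 CPM. Neat1 was over 1 in BLA, BLU and BLU-A and Malat1 in BLA; Mir100hg and Kcnq1ot1 were below 0 in BLA-A.

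The nanoparticle conditions were set against the extract of the same berry. Against BLA, BLA-A had lower Neat1, with a log2 difference of -1.46 (-1.51 to -1.42), lower Mir100hg at -1.54 (-1.59 to -1.51) and lower Kcnq1ot1 at -1.01 (-1.09 to -0.94). Malat1 differed by -0.26 (-0.28 to -0.25), and Gm26917 was higher by 0.45. Against BLU, BLU-A differed less for each gene but Malat1, with log2 differences of -0.24 for Neat1, -0.17 for Mir100hg, -0.40 for Kcnq1ot1, -0.45 for Malat1 and 0.21 for Gm26917. All 5 signs were the same in both berries. These differences carry no replicate check.

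Between berries, the 2 extracts differed less than the 2 nanoparticle conditions did for each of the 5 genes. BLU against BLA gave log2 differences of -0.49 for Neat1, -0.25 for Malat1, -0.09 for Mir100hg, 0.25 for Kcnq1ot1 and -0.51 for Gm26917. BLU-A against BLA-A gave 0.74 for Neat1, -0.43 for Malat1, 1.29 for Mir100hg, 0.86 for Kcnq1ot1 and -0.76 for Gm26917. Gm26917 and Malat1 were lower in the blueberry condition in both pairs, Kcnq1ot1 was higher in it in both, and Neat1 and Mir100hg differed in sign between the pairs.

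With the 4 treated libraries taken as one group against the untreated library, none of the 4 genes tested passed. This fit treats 4 different treatments as replicates of each other. Malat1 was higher in 4 of 4 treated libraries and its fitted log2 difference was 0.92 (unadjusted p = 0.016, adjusted p = 0.999, by edgeR's quasi-likelihood test, adjusted after Benjamini and Hochberg). Mir100hg was at 0.47 and Kcnq1ot1 at 0.58, each higher in 3 of 4 libraries, and Gm26917 at 0.10, higher in 2 of 4, all with an adjusted p of 0.999 in the same edgeR test. Neat1, picked for these contrasts, was not read in this test.
The edgeR test called 4 of 17647 genes, or 0.0227%, and 481 genes had an unadjusted p under 0.05. DESeq2 called 17 genes. The 4 genes (Slc9a2, Shc2, Gm36303 and Ptprz1, named after their values were seen) were all lower in treated cells. Leaving out the BLA-A library raised the number of calls to 45 and brought the adjusted p to 0.11 for Malat1, 0.0902 for Mir100hg, 0.147 for Kcnq1ot1 and 0.788 for Gm26917 in the edgeR test.

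Genes for the protein partners of Neat1 went both ways in 3 treatments, with medians near 0. Of 16 paraspeckle genes, 15 were tested and Rbm14 was listed at 0. None was over 1 in size in BLA, BLU or BLU-A, with median log2 fold changes of -0.04, 0.07 and -0.03, against -0.01, -0.01 and 0.00 over all tested genes. Values ran from -0.49 to 0.72 in BLA, -0.49 to 0.42 in BLU and -0.36 to 0.44 in BLU-A. In the same order, 7, 8 and 7 of the 15 genes were above 0. In BLA-A, Ewsr1, an RNA-binding protein, was over 1 at 1.21, and Nudt21, a subunit of a cleavage factor for 3′ ends, was under -1 at -1.47. The median in BLA-A was 0.10, against -0.01 over all genes. Sfpq, which binds Neat1 directly, had 364.5 CPM in untreated cells and 344.6, 292.6, 361.9 and 345.1 CPM in BLA, BLA-A, BLU and BLU-A. Nono had 229.3 CPM in untreated cells, 171.6 in BLA, 330.6 in BLA-A, 189.4 in BLU and 216.5 in BLU-A. Pspc1 had 93.1 CPM in untreated cells and 89.1 to 127.3 CPM in the treatments.

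Nuclear speckle genes, the setting of Malat1, had medians a little below 0. All 14 were tested, and the medians were -0.10, -0.18, -0.11 and -0.12 in BLA, BLA-A, BLU and BLU-A. In the same order, 3, 5, 4 and 3 of the 14 genes were above 0. Values ran from -0.83 to 0.19 in BLA and from -1.06 to 0.87 in BLA-A. In BLU and BLU-A they ran from -0.29 to 0.34 and from -0.29 to 0.25. Only Rnps1, a splicing factor, passed the threshold, at -1.06 in BLA-A. Srrm2 and Son, the large proteins that hold speckles together, had 1698.8 and 461.5 CPM in untreated cells and differed by no more than 0.27 in size in any treatment. The most abundant of the rest was Srrm1, at 352.8 CPM in untreated cells and 226.2 CPM in BLA-A.

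The genes that process the 3′ ends of Malat1 and Neat1 were sparse except for 1. Rpph1, the RNA of RNase P, which makes the cut shown above, had 946.1 CPM in untreated cells, 1597.1 in BLA, 2572.1 in BLA-A, 789.6 in BLU and 1271.7 in BLU-A. Its log2 fold change was over 1 in BLA-A only, at 1.44, in the library where Rn7sk and Rmrp were also far higher. Of 13 genes in the list, 11 were tested, with medians of -0.20, 0.05, -0.07 and 0.06 in BLA, BLA-A, BLU and BLU-A, and Rpp14 and Rpp25 were listed at 0. The protein subunits Pop5, at 1.13 in BLA-A, and Rpp40, at -1.31 in BLA, passed the threshold at levels of 3.68 and 3.19 CPM in untreated cells. Mettl16, which binds the triple helix of Malat1, had 42.4 to 55.7 CPM, and Pop1 had 69.6 to 79.4 CPM.

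Coding genes beside Malat1 and Neat1 did not share their pattern of levels. All 9 neighbours were tested, and the medians were 0.06, 0.58, -0.11 and -0.04 in BLA, BLA-A, BLU and BLU-A. Only Cdc42ep2, an effector of the GTPase Cdc42, passed 1, at 1.53 in BLA and 2.65 in BLA-A, from 1.01 CPM in untreated cells to 3.85 and 8.97 CPM. Frmd8, the gene next to Neat1, had a log2 fold change of 0.92 in BLA-A and of -0.07 to 0.12 in the other treatments. Ltbp3, the most abundant neighbour, was at 344.4 CPM in untreated cells and 519.7 in BLA-A, and between 317.3 and 332.7 CPM in the other treatments.

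In the imprinted domain of Kcnq1ot1, 10 of 14 genes were tested, and 4 stayed under the filter. These 4 were Cdkn1c, Ascl2, Tspan32 and Trpm5, each at no more than 0.415 CPM. Cdkn1c, a cell cycle inhibitor that Kcnq1ot1 is known to silence on the paternal copy, was at 0.263 CPM in untreated cells. None of the 10 passed the threshold in BLA, BLU or BLU-A, with medians of 0.16, 0.01 and 0.10. In BLA-A the median was 0.56, against -0.01 over all tested genes, and 0.58 for the neighbours of Malat1 and Neat1 on another chromosome. Over 1 in BLA-A were 3 of the 10, beside 8.54% of all genes. They were Phlda2 at 1.99, from 4.35 to 18.8 CPM, Tssc4 at 1.72, from 5.25 to 18.5 CPM, and Dhcr7, an enzyme of cholesterol synthesis, at 1.26, from 40.0 to 96.9 CPM.

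Among 24 other lncRNA genes, 18 were tested and 4 were listed at 0 (Peg13, Snhg11, Norad and Hotair). Over 1 were 4 in BLA, none in BLA-A, 3 in BLU and 1 in BLU-A. Under -1 were 3 in BLA-A, beside 12.4% of all tested genes. Of the 3148 tested genes that RefSeq classes as lncRNA, 19.1% were over 1 in BLA, 10% in BLA-A, 15.4% in BLU and 8.83% in BLU-A, so the counts of the list in BLA and BLU lay near this background. The medians of the list were 0.03, 0.14, 0.27 and 0.32 in the same order. Pvt1, a lncRNA beside Myc, had 352.0 CPM in untreated cells, 1009.8 in BLA, 461.1 in BLA-A, 906.0 in BLU and 683.9 in BLU-A. Airn, which silences genes of the Igf2r domain on the paternal copy, had 210.2, 477.4, 241.6, 429.9 and 339.3 CPM in the same order. Dleu2 was at 1.08 in BLA and 1.03 in BLU, and Firre at 1.02 in BLA and -0.66 in BLA-A. Like Neat1, Pvt1 and Airn had their lowest level in untreated cells and the next lowest in BLA-A. Airn runs antisense to part of Igf2r, so its counts carry the same doubt as those of Kcnq1ot1.
Other abundant lncRNAs stayed nearer to 0. Tug1 had 182.6 CPM in untreated cells and 176.5 to 195.3 CPM in the treatments, and Snhg14 120.2 and 96.7 to 137.3 CPM. In BLA-A, Oip5os1 was at -1.22, and Mir17hg and Mir99ahg, both hosts of microRNA clusters, at -2.17 and -1.12. The last 2 genes were sparse, at 3.49 and 1.8 CPM in untreated cells and 0.388 and 0.561 CPM in BLA-A. Meg3, an imprinted lncRNA, was at 14.3 CPM in BLU-A and at most 0.525 CPM elsewhere.

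**Figure D4:**
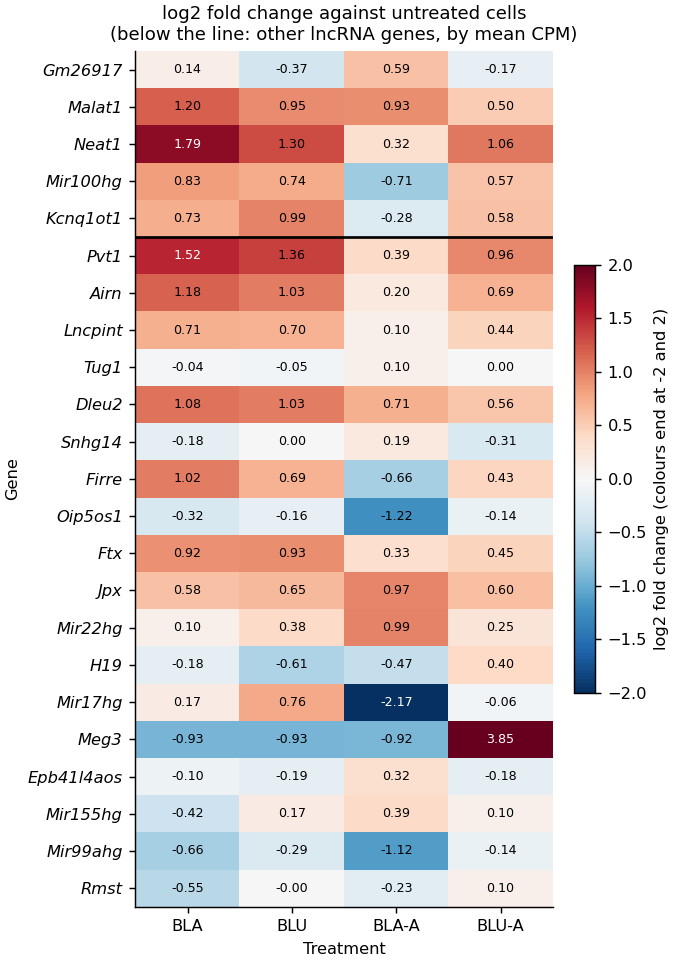
log2 fold change against untreated cells of the 5 lncRNA genes (above the line) and of 18 other lncRNA genes ordered by mean CPM (below it), by treatment, with the value in each cell and colours that end at -2 and 2. Pvt1, Airn and Dleu2 were over 1 in BLA and BLU, and Tug1 stayed between -0.05 and 0.10.

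Counts were taken over whole genes, introns included, so long unspliced RNA adds to them. Over all tested genes with a RefSeq span (16825 genes, 95.3%), the median log2 fold change moved with the span. In genes of 100 to 200 kb it was 0.21 in BLA, -0.11 in BLA-A, 0.22 in BLU and 0.09 in BLU-A. In genes under 5 kb it was -0.23, 0.21, -0.20 and -0.05 in the same order. In genes of 200 kb or more it was -0.80 in BLA-A, and between -0.08 and 0.12 in the other treatments. By RefSeq, Mir100hg (238660 bases) falls in this last class and Kcnq1ot1 (83437 bases) in that of 50 to 100 kb. The medians of that class were 0.11, -0.08, 0.11 and 0.04. The GENCODE positions given above make both genes longer, with 389970 bases for Mir100hg and 118926 for Kcnq1ot1. On those spans Mir100hg stays in its class, and Kcnq1ot1 falls in that of 100 to 200 kb. The part of gene span in the values of Mir100hg and Kcnq1ot1 was not tested. Neat1 (20773 bases) and Malat1 (6983 bases) lie in classes whose medians were between -0.10 and 0.05.
The 3148 tested genes of the RefSeq biotype lncRNA had medians of 0.19 in BLA, -0.11 in BLA-A, 0.17 in BLU and 0.09 in BLU-A. The 13516 protein-coding genes had medians of -0.05, 0.00, -0.03 and -0.01. Malat1, Mir100hg and Kcnq1ot1 were above the lncRNA median in BLA, BLU and BLU-A. So was Neat1, but its blueberry values are those that chose it, so nothing is read from its place there. In BLA-A, Mir100hg (-0.71) and Kcnq1ot1 (-0.28) were below that median, and Neat1 (0.32) and Malat1 (0.93) above it. Gm26917 was below it in BLA (0.14), BLU (-0.37) and BLU-A (-0.17) and above it in BLA-A (0.59).

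**Figure D5:**
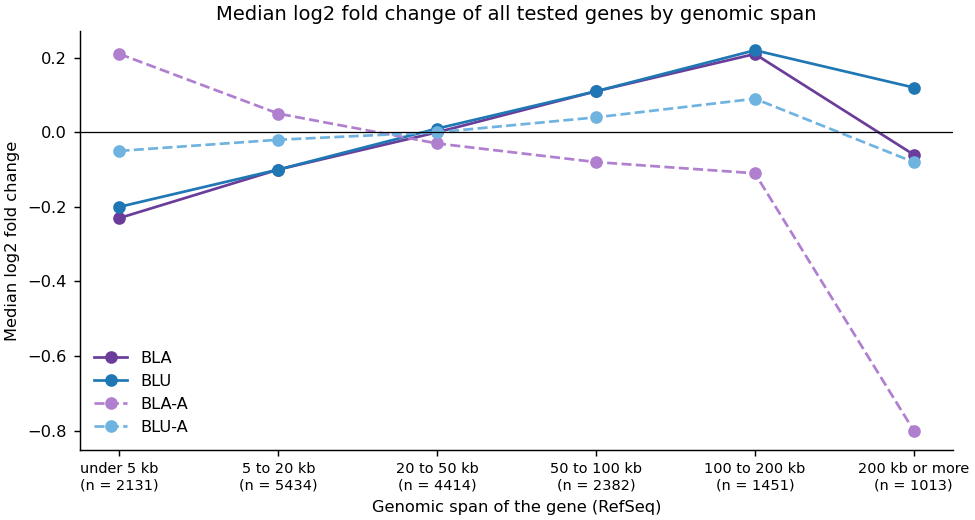
Median log2 fold change against untreated cells of all tested genes in 6 classes of RefSeq gene span, with the number of genes in each class, by treatment. The medians in BLA and BLU lay at -0.23 and -0.20 in the shortest genes and at 0.21 and 0.22 in genes of 100 to 200 kb, and in BLA-A at 0.21 in the shortest and -0.80 in the longest.

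Of 13 ribosomal and other structural RNA genes, 7 were tested and the rest were not analysed here. Over 1 were 1 in BLA and 3 in BLA-A, beside 7.92% and 8.54% of all 17647 genes. Under -1 were 1 in BLA, 1 in BLU and 2 in BLA-A, beside 8.54%, 4.64% and 12.4%. The BLA and BLU values were those of sparse genes. Rn7s1 went from 0.976 CPM in untreated cells to 7.97 in BLA, and Rn7s2 from 3.6 to 0.991 in BLA and 0.98 in BLU. AY036118, the most abundant of the 7, had 4478.4 CPM in untreated cells, 4459.6 in BLA, 4240.0 in BLA-A, 3284.8 in BLU and 4227.7 in BLU-A. Gm26917 had 12.8 times its count in untreated cells, 14.2 in BLA, 20.4 in BLA-A, 13.5 in BLU and 12.1 in BLU-A. Both genes were lowest in BLU.

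The genes most like each lncRNA gene were taken as the 3 with the smallest Euclidean distance between their 4 log2 fold changes, among 7638 genes with a mean of at least 20 CPM. For Neat1 they were Gm51710 (distance 0.29), Lrmda (0.29) and Pvt1 (0.30). For Malat1 they were Msi2 (0.17), an RNA-binding protein, Ttc39c (0.21) and Cblb (0.22), a ubiquitin ligase. For Mir100hg they were Ccdc57 (0.22), Fam193b (0.24) and Firre (0.25). For Kcnq1ot1 the nearest gene was Kcnq1 at 0.06, the gene that overlaps it, followed by Rps6ka5, a kinase, at 0.21 and Gm12610 at 0.22. For Gm26917 they were Gm12841 (0.14), Atp6v0b (0.15) and Sec24c (0.15). Among the 5 genes themselves the closest pair was Mir100hg and Kcnq1ot1, at 0.51, and the most distant Gm26917 and Neat1, at 2.66. The 4 fold changes share the untreated library, so these distances describe the 5 libraries only.

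Promoters of Malat1 and Kcnq1ot1 are shown because the levels counted for both genes were higher in BLA, BLU and BLU-A and differed in direction in BLA-A. The counts of Kcnq1ot1 cannot be told apart from those of Kcnq1, as given above. Each window holds 300 bases around the start, from RefSeq (GRCm38.p6), and was found once in GRCm39, at chr19:5852651-5852950 and chr7:142850235-142850534, both on the minus strand. Capitals mark matches of 4 motifs searched on both strands. They are CCAAT, the CCAAT box, then TGACG, the short form of a cyclic AMP response element, then GGGCGG, known as the GC box, and TGACNNNGC, the core of an antioxidant response element. Matches of TGACG and of this core can overlap.
Malat1 promoter: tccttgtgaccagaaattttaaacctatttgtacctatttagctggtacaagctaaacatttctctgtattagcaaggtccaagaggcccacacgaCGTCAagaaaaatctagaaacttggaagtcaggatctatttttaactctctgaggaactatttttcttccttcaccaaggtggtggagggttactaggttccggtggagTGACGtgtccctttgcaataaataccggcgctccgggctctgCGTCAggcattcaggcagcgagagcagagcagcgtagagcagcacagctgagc
Kcnq1ot1 promoter: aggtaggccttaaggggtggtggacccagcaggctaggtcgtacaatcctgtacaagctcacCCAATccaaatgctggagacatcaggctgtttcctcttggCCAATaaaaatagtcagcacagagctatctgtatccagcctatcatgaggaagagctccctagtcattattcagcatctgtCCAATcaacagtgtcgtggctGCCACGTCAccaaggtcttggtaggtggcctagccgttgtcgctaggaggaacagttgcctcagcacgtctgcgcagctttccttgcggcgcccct
The Malat1 window held 3 matches of TGACG, and 20.8% of 32851 promoter windows hold at least 1. The Kcnq1ot1 window held 3 matches of CCAAT, and 37.4% of windows hold at least 1. It also held 1 match of TGACNNNGC, found at least once in 12.4%, which overlaps its only match of TGACG. The GC box, found in 35.7% of windows, was in neither. Of the 2 Mir100hg windows, 1 held a TGACNNNGC match and the other a CCAAT match. These are matches of letters and not sites of binding.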

How the data were processed

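Bulk RNA-seq was measured in untreated 4T1 cells and in 4 treatments. The authors deposited raw counts per gene for 40402 genes in 15 columns. Per the study's methods they depleted ribosomal RNA enzymatically, primed with primers named N6-T RT and ODT-RT, merged both reads of a pair, aligned them as single reads to GRCm39 with STAR and counted them in OmicsBox on features of type gene, with strand. The submitters' processing notes name DESeq2 1.36.0. The deposited tables of the authors' own differential expression and gene set enrichment were not used.

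The 5 genes and all gene lists were chosen with earlier results of these data known. The 3 columns of a condition were averaged and rounded, since their chi-square per degree of freedom, over genes averaging 10 counts or more, did not reach 1.5. Genes had to reach 1 CPM in 1 library or more. Fold changes used TMM in edgeR 4.0.16, 0.5 CPM added, and a threshold of 1 on the log2 scale. Shares carry 95% Wilson intervals and ratios conditional binomial intervals, for counting error only. With totals of 25613778 to 26956442 counts, 3 counts, taken as the floor, were worth 0.111 to 0.117 CPM. The quasi-likelihood test of edgeR (Benjamini-Hochberg at 0.05) set 4 treated libraries against 1 untreated library. On simulated data it missed most genes given the smaller of 2 simulated folds. That simulation was run at a fixed spread and at an estimated spread, each common to all genes. The outcome given is for the estimated spread, which took the different treatments as replicates. The smaller simulated fold was larger than any fold change of the 5 genes. DESeq2 1.42.0 served as an alternative. Named genes are the 5 genes, list members past the threshold or among the 3 most abundant of a list, the 3 nearest genes by fold changes, and genes that overlap one of the 5. Other list members named with a role were chosen after their values were seen. Values of 1 list member are not reported here. Positions came from GENCODE M39 on GRCm39, and spans, biotypes and sequences from RefSeq (GRCm38.p6) or the GRCm39 genome. R 4.3.3, Python 3.11.15, numpy 2.4.6, pandas 2.3.3 and scipy 1.17.1 were used.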

Additional observations from a re-analysis of the deposited data

Results flagged for a closer look

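Some genes lay above untreated cells in one condition and below in another. None of these differences was tested, since each condition has 1 library. Gm26917 was above untreated cells in BLA (0.14) and below in BLU (-0.37), a log2 difference of -0.51 for BLU against BLA, and again above in BLA-A (0.59) and below in BLU-A (-0.17), a difference of -0.76 for BLU-A against BLA-A. Mir100hg was above untreated cells in BLA (0.83) and below in BLA-A (-0.71), a difference of -1.54 for BLA-A against BLA, and 1.29 for BLU-A against BLA-A. Kcnq1ot1 was above in BLA (0.73) and below in BLA-A (-0.28), a difference of -1.01 for BLA-A against BLA, and 0.86 for BLU-A against BLA-A. In the BLA-A library genes of 200 kb or more had a median log2 fold change of -0.80, and mt-Rnr1, Rn7sk and Rmrp stood far from the other libraries. The part of these values in the differences was not tested.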

How the results depend on the processing

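The 20 log2 fold changes of the 5 genes kept their sign under RLE size factors, scaling by total counts, totals and TMM without Gm26917, pseudocounts of 0.1 and 2 CPM and without each column in turn. For BLA, BLU and BLU-A they also did so under TMM without the BLA-A library, an alternative added after seeing the data. They also did so with no filter on low counts. Values over 1 numbered 4, and 5 where Gm26917 was left out of totals and TMM or no filter was used, since Malat1 in BLA-A went from 0.93 to 1.06 and 1.03. Scaling by total counts shifted the median of all genes in BLA-A by -0.17 and leaving out Gm26917 by 0.11. Neat1 in BLA-A went from 0.32 to 0.13 under total counts and Mir100hg there from -0.71 to -0.90. With Gm26917 out of the total, the share of the other 4 genes was 0.263% in untreated cells, 0.583% in BLA, 0.364% in BLA-A, 0.495% in BLU and 0.388% in BLU-A. Genes over 1 or under -1 numbered 2904, 3694, 1816 and 1385 in BLA, BLA-A, BLU and BLU-A, and 942, 1859, 400 and 208 with 2 CPM added. With 0.1 CPM added they numbered 2742 in BLU and 2366 in BLU-A.

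The quasi-likelihood test called 4 genes, 17 with DESeq2, and 3 to 45 with 1 treated library left out, the 45 without BLA-A. Entering the 15 columns as separate samples gave 3628 genes, or 2544 under a replicate block. Malat1, with adjusted p (edgeR, or DESeq2 for 0.81) between 0.11 and 1 otherwise, then had 0.00079, and 0.00307 under the block. If the columns are subsets of single libraries, these fits understate the spread. The replicate numbers do not pair the columns: deviations of same-numbered columns from their condition means correlated at -0.0238 to 0.0197 over 30 pairs. At these depths counting error was small, and the lack of replicate libraries sets the limit.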
